A study of Homo sapiens with 6 samples.

Results

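The ribosome is built from ribosomal RNA and one copy of most ribosomal proteins, which belong either to the large 60S or to the small 40S subunit, so the genes for these proteins are usually expressed together. Their messages are short, abundant and start with a run of pyrimidines (a 5′ terminal oligopyrimidine tract, TOP) through which growth signals control their translation. A few members have a close paralogue that can take their place in the ribosome, and for these the balance between the copies can differ between tissues.

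The genes were chosen by symbol, as cytoplasmic ribosomal protein genes named RPL, RPS or RPLP with a number, and 82 of the 20824 genes in the table met the rule, of which 51 belong by name to the 60S and 31 to the 40S subunit. Messenger RNA was sequenced from 21NT cells, an authenticated breast line that models ductal carcinoma *in situ*, and the levels were given as RPKM (reads scaled to the length of the transcript and to the alignments of the library). Each of the 3 stable lines had 2 libraries. The EV line carried the empty pcDNA3.1 vector, and the TBX3iso1 and TBX3iso2 lines carried the same vector with 1 of the 2 splice isoforms of the T-box transcription factor TBX3. All 3 lines were grown in medium with insulin, EGF, hydrocortisone and G418, the agent for which the vector carries resistance. Each line was 1 stable transfectant, pooled from resistant clones, so a difference between lines cannot be told apart from one between transfections, and the labels do not say whether the 2 libraries came from separate cultures. The p-values therefore measure the spread between libraries, which may be technical.

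Total *TBX3* was 8.52 and 8.24 RPKM in EV, 13.1 and 11.4 in TBX3iso1 and 17.5 and 15.5 in TBX3iso2, above EV in all 4 libraries of the TBX3 lines. The libraries held between 43176600 and 54512400 alignments, and the table holds no counts per gene. The 6 epithelial markers summed to between 2102 and 2766 RPKM, and 4 of 4 leukocyte markers were under 0.5 RPKM in every library. Endothelial markers summed to 7.37 and 7.73 in EV and to between 1.26 and 1.46 in the TBX3 lines, with 3 of 4 under 0.5 in every library, and fibroblast markers to between 4.55 and 8.64, with 3 of 5 under 0.5. Their part in the results was not tested.

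The 30 bases around the annotated start, 10 before and 20 from the start itself, are shown for members on which the results turn, because the pyrimidine tract at this point is what the family shares and the symbol rule did not use. Promoters were found for 65 of the 82 members in RefSeq (GRCh38.p14), and *RPL23A* and *RPL37* are not among them. Capitals mark a tract, which was counted where the start base was C and at least 5 pyrimidines (C or T) in a row began there on the transcript strand. The windows are for *RPL22L1* (chr3:170870176-170870205, minus strand), its parent *RPL22* (chr1:6199576-6199605, minus), *RPS21* (chr20:62387093-62387122, plus), *RPL37A* (chr2:216498834-216498863, plus), *RPL31* (chr2:101002279-101002308, plus), *RPS27* (chr1:153990752-153990781, plus), *RPLP0* (chr12:120201092-120201121, minus) and *RPS27L* (chr15:63157458-63157487, minus).
RPL22L1: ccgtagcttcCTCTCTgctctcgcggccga
RPL22: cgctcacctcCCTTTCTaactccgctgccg
RPS21: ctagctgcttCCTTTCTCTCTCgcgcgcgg
RPL37A: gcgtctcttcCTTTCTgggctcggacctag
RPL31: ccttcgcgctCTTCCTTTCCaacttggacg
RPS27: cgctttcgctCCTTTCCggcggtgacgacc
RPLP0: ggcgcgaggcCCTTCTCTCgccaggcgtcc
RPS27L: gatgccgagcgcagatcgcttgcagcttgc
A tract was present for 46 of the 65 members with a promoter (70.8%), against 694 of the 9472 genes tested that have one (7.33%). Counted by promoter, it was 46 of 81 promoters of members (56.8%) against 1428 of 35093 RefSeq promoters (4.07%). *RPS27L*, a paralogue of *RPS27*, had none in this window, while *RPL22L1* had one like its parent. The median log2 fold change against EV was 0.37 in TBX3iso1 and 0.23 in TBX3iso2 for the 46 members with a tract and 0.19 in both lines for the 19 without. For the 648 other genes with a tract it was -0.04 and 0.01, and for the 8759 other genes without one -0.05 and -0.00. The count of tracts depended on the annotated start. Among the members counted as without a tract, several had at least 5 pyrimidines in a row shortly after an annotated start. Examples were *RPL4*, *RPL9*, *RPL10A*, *RPL15*, *RPL27*, *RPS26* and *RPS28*. In *RPL19* such a run spanned a start base of T. Which start these cells use was not tested, so the medians compare annotated starts and not TOP messages with others.

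The ribosomal protein genes were among the most abundant transcripts. The median member tested had a mean of 351 RPKM over the 6 libraries, against 7.66 for all genes tested, and 13 members were among the 50 most abundant genes and 37 among the 100 most abundant. *RPL41*, which encodes the smallest 60S protein, stood highest of the members, at 1760 and 1755 RPKM in EV, 1883 and 2210 in TBX3iso1 and 1750 and 2096 in TBX3iso2. *RPS2* of the 40S subunit came next with 1448 and 1454 in EV, and *RPL19* and *RPLP0* were also among the 5 highest members. The lowest members were mostly paralogues: *RPL3L*, *RPL22L1*, *RPL26L1* and *RPS27L*, together with *RPL36A*. *RPL3L*, known as the striated muscle form of *RPL3*, lay between 0.0159 and 0.0739 RPKM and was the only member under the mean of 0.5 RPKM that a gene needed to be tested, which left 81 members among 12805 genes tested. The transcripts were short, with a median length of 827 bases against 3182.5 for the other genes tested, as measured on the canonical GENCODE transcript.

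Together the family took a larger share of the RPKM in the TBX3 lines, and the share also differed between the 2 libraries of each TBX3 line. It held 9.07% and 9.34% of the summed RPKM in EV, 10.1% and 11.3% in TBX3iso1 and 9.55% and 10.5% in TBX3iso2. Both libraries of each TBX3 line were above both EV libraries, and replicate 2 was the higher one in all 3 lines. The means were 9.21% ± 0.194 for EV, 10.7% ± 0.839 for TBX3iso1 and 10.04% ± 0.694 for TBX3iso2 (SD, n = 2 each). With 2 libraries per line no exact permutation test can pass a threshold of 0.05, so the shares are a description.

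The replicates were compared first, because these short transcripts differed between replicates in the TBX3 lines. In TBX3iso1, 80 of 81 members were higher in replicate 2 than in replicate 1, by a median of 0.29 on the log2 scale, where 0.1 RPKM was added to every value before taking logs. In TBX3iso2 this was the case for 81 of 81 members, by a median of 0.25. In EV it was 59 of 81 members and a median of 0.04. Over all genes tested the same medians were -0.03 in EV, 0.00 in TBX3iso1 and -0.01 in TBX3iso2. The size of the difference depended on the scaling. Written as replicate 1 minus replicate 2, the medians of the members in TBX3iso1 and TBX3iso2 went from -0.29 and -0.25 to -0.10 and -0.074 with quantile normalization and to -0.13 and -0.067 with a correction for transcript length, with 66 and 67 and then 77 and 70 members higher in replicate 2. The stalk genes *RPLP1* and *RPLP2*, the 40S gene *RPS12* and the ubiquitin fusion gene *RPS27A* were examples. *RPLP1* was 489 and 441 RPKM in EV, 550 and 673 in TBX3iso1 and 466 and 624 in TBX3iso2. *RPLP2* was 309 and 305, 354 and 443, and 284 and 400 in the same order. *RPS12* was 495 and 565, 603 and 778, and 422 and 538, and *RPS27A* was 204 and 228, 248 and 330, and 244 and 304. The members with the smallest mean replicate difference were *RPL7L1* (62.7 and 60.9, 64.8 and 68.4, 67.5 and 68.7 RPKM), *RPS18* and *RPL4*.

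**Figure D1:**
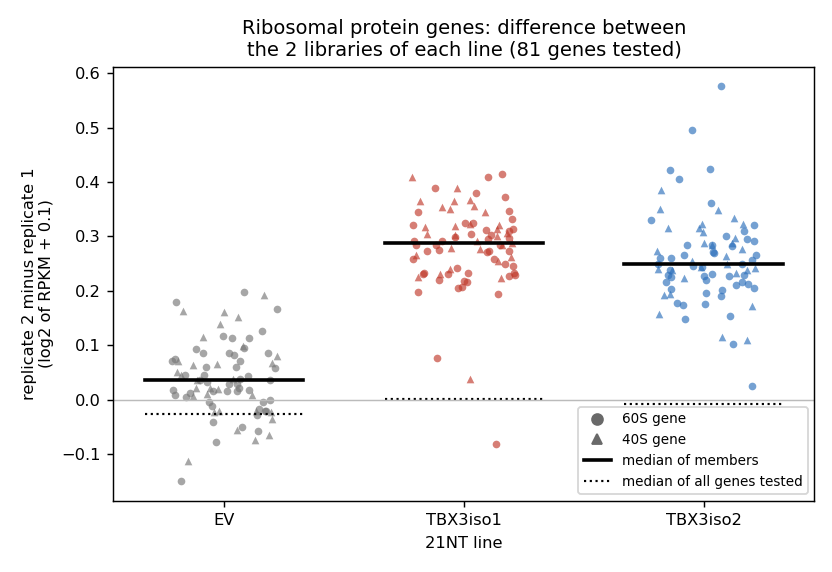
Each point is 1 of the 81 tested ribosomal protein genes, with the log2 difference of replicate 2 minus replicate 1 on the vertical axis for the EV, TBX3iso1 and TBX3iso2 lines. Circles are 60S genes, triangles are 40S genes, solid lines are the medians of the members (0.04, 0.29 and 0.25) and dotted lines those of all genes tested.

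Both subunits showed the same difference. The 50 tested 60S members had replicate medians of 0.03 in EV, 0.27 in TBX3iso1 and 0.25 in TBX3iso2, and the 31 members of the 40S had 0.04, 0.31 and 0.26. Other short transcripts behaved alike. The 411 other genes with transcripts of up to 700 bases had medians of 0.23 in TBX3iso1 and 0.24 in TBX3iso2, and the 2986 with over 5000 bases had -0.15 and -0.22. In EV these medians were 0.01 and -0.05. By canonical transcript length the members differed little among themselves, since the 29 members of up to 700 bases had medians of 0.30 and 0.26 and the 12 members between 2000 and 3000 bases had 0.27 and 0.25, where other genes of that length had 0.05 and 0.05. The canonical length can exceed that of the transcript these cells use, as for *RPL37* with 7573 bases, and which transcript was used was not tested. By coding length the shorter members had the larger differences. Across the 81 members, Spearman's rho between coding length and the difference of replicate 2 minus replicate 1 was -0.34 in TBX3iso1, -0.38 in TBX3iso2 and 0.05 in EV, and between coding length and the log2 fold change against EV it was -0.43 in TBX3iso1 and -0.17 in TBX3iso2. With the length of the canonical transcript the first 2 values were -0.21 and -0.05. These are descriptions over genes measured in the same libraries.

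**Figure D2:**
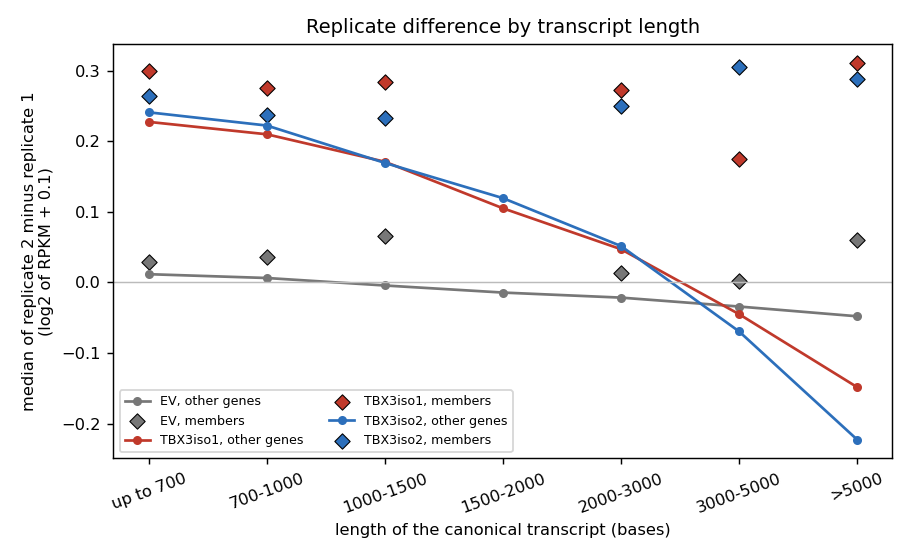
Median log2 difference of replicate 2 minus replicate 1 by the length of the canonical transcript in bases. Lines join the other genes tested and diamonds are the ribosomal protein genes, and in TBX3iso1 and TBX3iso2 the lines fall with length while the diamonds stay between 0.17 and 0.31.

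Against EV, nearly the whole family was on the higher side in TBX3iso1. The log2 fold change was above 0 for 78 of 81 members, against 45.2% of all genes tested, with a median of 0.32 (range -0.24 to 1.30) against -0.05 for all genes tested. By transcript length, the median of the other genes tested fell from 0.11 up to 700 bases to -0.17 over 5000 bases. Members of up to 700 bases had 0.37. Under the 6 other scalings and corrections for length or GC content the median of the members stayed above 0, between 0.13 after quantile normalization and 0.40 after median-ratio scaling. In 71 members both TBX3iso1 libraries were above both EV libraries, which is 87.7% where 34.3% of all genes tested were. A single member (*RPL13*) had both TBX3iso1 libraries below EV (1.23%, against 44.1%). Fewer members passed the test on their own. A call needed an adjusted p under 0.05 together with more than a 1.5-fold change, and 6 members were called higher, which is 7.41% of the members against 7.46% of all genes tested, and 0 were called lower, against 14.1%. At an adjusted p under 0.05 alone there were 19 higher (23.5%, against 19%) and 0 lower (against 25.7%). Without adjustment of p, 38 passed on the higher side (46.9%, against 23%) and 0 on the lower (against 30.6%). The share called higher was near that of all genes tested. The count at an adjusted p depended on whether the model held the replicate number. With it as a block, 54 members were higher (66.7%, against 24.1%) and 1, *RPS27L*, was lower (against 31.8%), and the same 6 members were called. The labels pair no libraries across lines. The block also gives all lines 1 shift, although the members shifted less in EV than in the TBX3 lines, so values with the block are an alternative only. Dividing the comparison by library gives the size of the replicate part: the median member was 0.17 and 0.14 above the EV libraries in replicate 1 of TBX3iso1, and 0.46 and 0.45 in replicate 2.

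The TBX3iso2 line showed the same direction to a smaller extent. There the log2 fold change was above 0 for 75 of 81 members, against 49.8% of all genes, with a median of 0.21 (range -0.28 to 1.40) against -0.00 for all genes tested. Other genes had medians of 0.07 up to 700 bases, 0.12 between 1000 and 1500 and -0.11 over 5000. Members of up to 700 bases had 0.21. In 55 members (67.9%, against 37.5%) both TBX3iso2 libraries exceeded both EV libraries, and the median of the members stayed above 0 under the same 6 alternatives (0.08 to 0.25). Calls by both limits numbered 4 higher, or 4.94% of the members against 8.94% of all genes tested, and 0 lower, against 12.3%. With an adjusted p under 0.05 alone the count was 8 higher (9.88%, against 22.9%) and 0 lower (against 22.7%). With the replicate block it was 34 higher (42%, against 27.9%) and 2 lower, *RPL37* and *RPS27L* (against 28.1%), and the same 4 members were called. The median member of replicate 1 was 0.11 and 0.07 above the EV libraries, and that of replicate 2 was 0.36 and 0.32 above them. Both comparisons share the EV libraries, so their values stand side by side and are not independent.

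**Figure D3:**
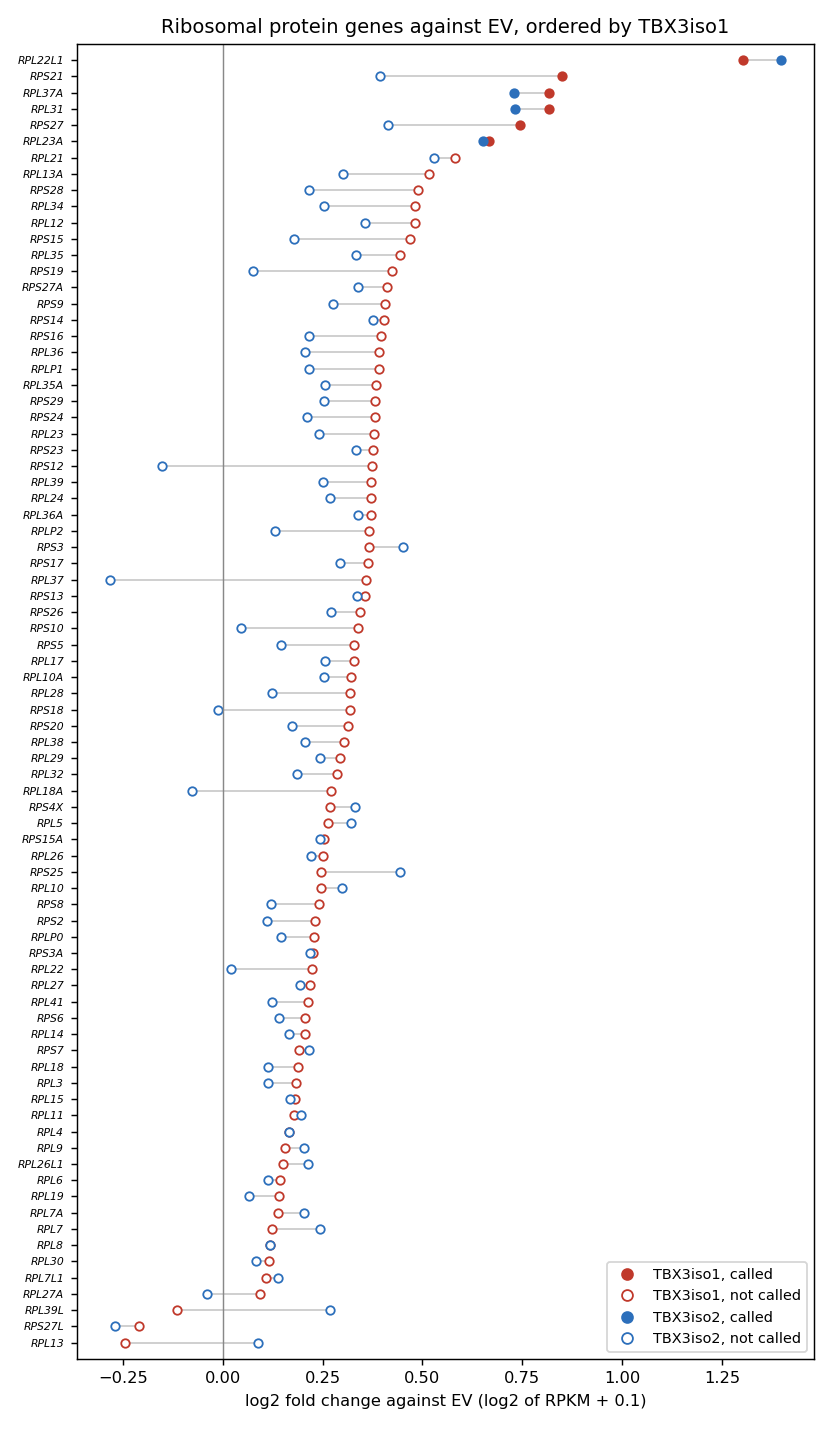
Log2 fold change against EV of the tested ribosomal protein genes, less 1 that is not reported here, ordered by the value in TBX3iso1 (red) with TBX3iso2 in blue, where filled points passed both the adjusted p and the fold limit. *RPL22L1* stands apart at 1.30 and 1.40, and most open points lie between 0 and 0.5.

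*RPL22L1* was the member with the largest change. It encodes a paralogue of the 60S protein RPL22 and lies on chr3:170582664-170587997 (GRCh37, minus strand; the other coordinates above are on GRCh38.p14). Its level was 8.34 and 9.03 RPKM in EV, 19.2 and 24.2 in TBX3iso1 and 21.5 and 24.6 in TBX3iso2. All TBX3 libraries were more than 2 times the EV libraries, and the 2 TBX3 lines overlapped. The log2 fold change was 1.30 ± 0.12 (SE) in TBX3iso1 (limma, Benjamini-Hochberg adjusted p = 0.00018) and 1.40 ± 0.12 in TBX3iso2 (adjusted p = 0.000133). The call held without any 1 of the libraries and was the only call of the family left when variances were not moderated. Its parent *RPL22* was 92.7 and 97.7 RPKM in EV, 103 and 120 in TBX3iso1 and 89.7 and 104 in TBX3iso2, with log2 fold changes of 0.22 and 0.02 that did not pass the test (adjusted p = 0.127 and 0.894), of which the first passed with the replicate block (adjusted p = 0.0237).

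A ratio of paralogue to parent within a library divides out what all members of that library share. *RPL22L1* relative to *RPL22* was 0.0900 and 0.0925 in EV, 0.187 and 0.201 in TBX3iso1 and 0.240 and 0.237 in TBX3iso2. The 3 lines did not overlap, and the replicates of a line were closer to each other than to any library of another line. *RPS27L*, whose product resembles the 40S protein RPS27, went the other way relative to its parent, with ratios of 0.0673 and 0.0738 in EV, 0.0360 and 0.0368 in TBX3iso1 and 0.0435 and 0.0442 in TBX3iso2. Its own level was 34.6 and 38.5, 27.95 and 35.7, and 27.4 and 33.5 RPKM, and its fold changes of -0.21 and -0.27 did not pass the test (adjusted p = 0.25 and 0.149) but did with the replicate block (0.0313 and 0.0106), while *RPS27* itself was higher in every TBX3 library. *RPL39L*, the paralogue of *RPL39* known from testis, had ratios of 0.0991 and 0.0901 in EV, 0.0688 and 0.0660 in TBX3iso1 and 0.0972 and 0.0939 in TBX3iso2, which set TBX3iso1 apart from both other lines. *RPL7L1* to *RPL7* and *RPL26L1* to *RPL26* gave ratios between 0.118 and 0.146 and between 0.0581 and 0.0662, with overlap between EV and at least 1 TBX3 line. *RPL3L* was too low for a ratio. The ratios carry no test.

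**Figure D4:**
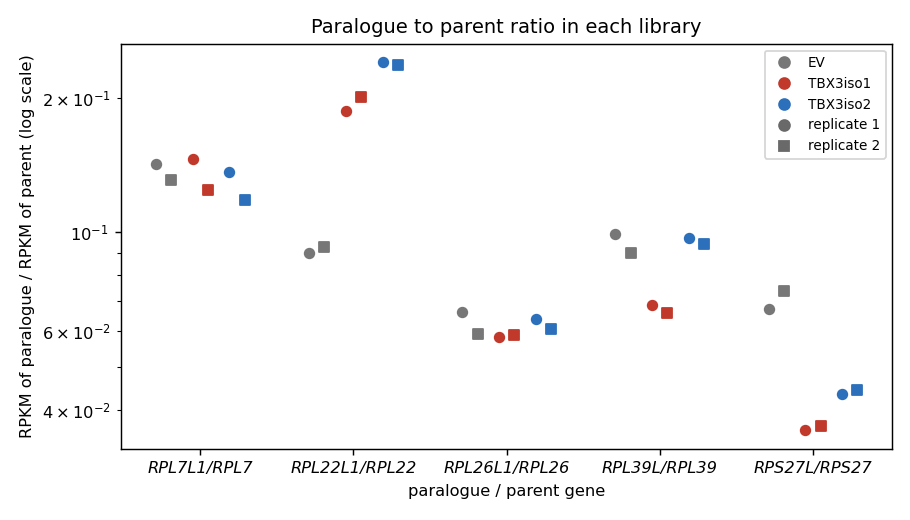
RPKM of each paralogue divided by the RPKM of its parent gene, on a log axis, in each library (circles replicate 1, squares replicate 2, colours the line). For *RPL22L1* the 3 lines lie apart from 0.0900 in EV to 0.240 in TBX3iso2, and for *RPS27L* the TBX3 lines lie below EV.

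Among the other members of the 60S subunit, *RPL37A*, *RPL31* and *RPL23A* were called in both TBX3 lines. All encode core proteins of the large subunit. *RPL37A* was 610 and 616 RPKM in EV, 965 and 1208 in TBX3iso1 and 906 and 1138 in TBX3iso2, with log2 fold changes of 0.82 ± 0.16 (adjusted p = 0.00587) and 0.73 ± 0.16 (adjusted p = 0.00937). *RPL31* was 56.9 and 63.9 in EV, 98.2 and 115 in TBX3iso1 and 86.5 and 116 in TBX3iso2, with 0.82 ± 0.15 (adjusted p = 0.00356) and 0.73 ± 0.15 (adjusted p = 0.00562). *RPL23A* was 296 and 295 in EV, 432 and 509 in TBX3iso1 and 431 and 499 in TBX3iso2, with 0.67 ± 0.12 (adjusted p = 0.00393) and 0.65 ± 0.12 (adjusted p = 0.00418). For all 3 genes every TBX3 library was above both EV libraries, and the TBX3 lines overlapped. Without an EV library, which leaves EV with 1 library and its spread taken from the other lines, the folds of *RPL37A* and *RPL23A* stayed as they were while the adjusted p rose above 0.05. *RPL37A* was 0.81 and 0.82 in TBX3iso1 without EV replicate 1 and 2 (adjusted p = 0.0696 and 0.0677) and 0.72 and 0.74 in TBX3iso2 (0.0929 and 0.0888). *RPL23A* was 0.67 and 0.66 in TBX3iso1 (adjusted p = 0.0501 and 0.0526) and 0.65 and 0.65 in TBX3iso2 (0.0526 and 0.055). *RPL31* lost its call in TBX3iso2 without EV replicate 1 (0.65, adjusted p = 0.0585) or TBX3iso2 replicate 2 (log2 fold change 0.52), and kept it in TBX3iso1. Without TBX3iso2 replicate 2, *RPL37A* and *RPL23A* fell under the 1.5-fold limit in TBX3iso2 (log2 fold change 0.56 and 0.54), and without TBX3iso1 replicate 2 *RPL23A* did so in TBX3iso1 (0.55). Scaling also took *RPL23A* under the fold limit. In TBX3iso1 it was 0.44 with quantile normalization, 0.58 scaled to total RPKM and 0.56 corrected for coding length, and in TBX3iso2 it was 0.53, 0.57 and 0.53 in the same order and 0.55 corrected for transcript length. *RPL37A* was under the limit in TBX3iso2 when corrected for coding length (0.58).

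Near copies bear on these values. *RPL31* and *RPL23A* have 62 and 87 annotated pseudogenes, *RPL37A* has 2 and *RPL22L1* has 0, and 77 of the 82 members have at least 1. The aligner kept more than one alignment of a read up to a cap, and how such reads were then counted is not given in the sources used here, so the levels of members with near-identical copies are uncertain. The table also lists 27 ribosomal protein pseudogenes, which took 0.471% of the summed RPKM. The listed pseudogenes of *RPL31* and *RPL23A* had means of at most 7.33 RPKM. By contrast *RPL21P28* was above *RPL21* in every library. The same held for *RPL13AP5* above *RPL13A*, and for *RPSAP58* above *RPSA*, which lies outside the symbol rule. *RPL21P28* was 173 and 185 RPKM in EV, 214 and 285 in TBX3iso1 and 218 and 264 in TBX3iso2. *RPL21*, with 133 annotated pseudogenes, was 123 and 134 RPKM in EV, 166 and 222 in TBX3iso1 and 166 and 206 in TBX3iso2. Its log2 fold changes of 0.58 (adjusted p = 0.0191) and 0.53 (adjusted p = 0.0267) passed the test of p but not the fold limit. Across the 81 members, Spearman's rho between the number of pseudogenes and the log2 fold change was 0.09 in TBX3iso1 and 0.22 in TBX3iso2, which is given as a description over genes from the same libraries.

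In the 40S subunit, *RPS21* and *RPS27* were called in TBX3iso1 and not in TBX3iso2. *RPS21*, needed for maturation of the small subunit's RNA, was 444 and 456 RPKM in EV, 715 and 920 in TBX3iso1 and 524 and 667 in TBX3iso2. Its log2 fold change was 0.85 ± 0.17 in TBX3iso1 (adjusted p = 0.00499) and 0.39 ± 0.17 in TBX3iso2 (adjusted p = 0.0882). *RPS27*, a zinc finger protein of the 40S subunit, was 514 and 522 in EV, 777 and 970 in TBX3iso1 and 630 and 756 in TBX3iso2, with 0.74 ± 0.15 (adjusted p = 0.00589) and 0.41 ± 0.15 (adjusted p = 0.0568). Both genes were higher in every TBX3 library than in EV and higher in every TBX3iso1 than in every TBX3iso2 library. The difference between the TBX3 lines itself did not pass the test for either (-0.46 and -0.33, adjusted p = 0.11 and 0.185). With the replicate block it passed for *RPS21* (adjusted p = 0.0178), and the values of both genes in TBX3iso2 against EV then passed the test of p (0.0142 and 0.0104) but not the fold limit. Without TBX3iso2 replicate 2 the adjusted p for *RPS21* was 0.0498 (-0.63), a value that rests on 1 TBX3iso2 library with its spread taken from the other lines. Without EV replicate 1 or 2 the folds against EV stayed as large while the call was lost, at 0.83 and 0.87 for *RPS21* (adjusted p = 0.0577 and 0.0523) and at 0.73 and 0.76 for *RPS27* (0.0686 and 0.0651). *RPS27* also fell under the fold limit without TBX3iso1 replicate 2 (0.58), with quantile normalization (0.56) and when corrected for coding length (0.57). At an adjusted p under 0.05 without the fold limit, *RPS25* and *RPS3* were higher in TBX3iso2 (0.44 and 0.45, adjusted p = 0.02 and 0.0237).

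**Figure D5:**
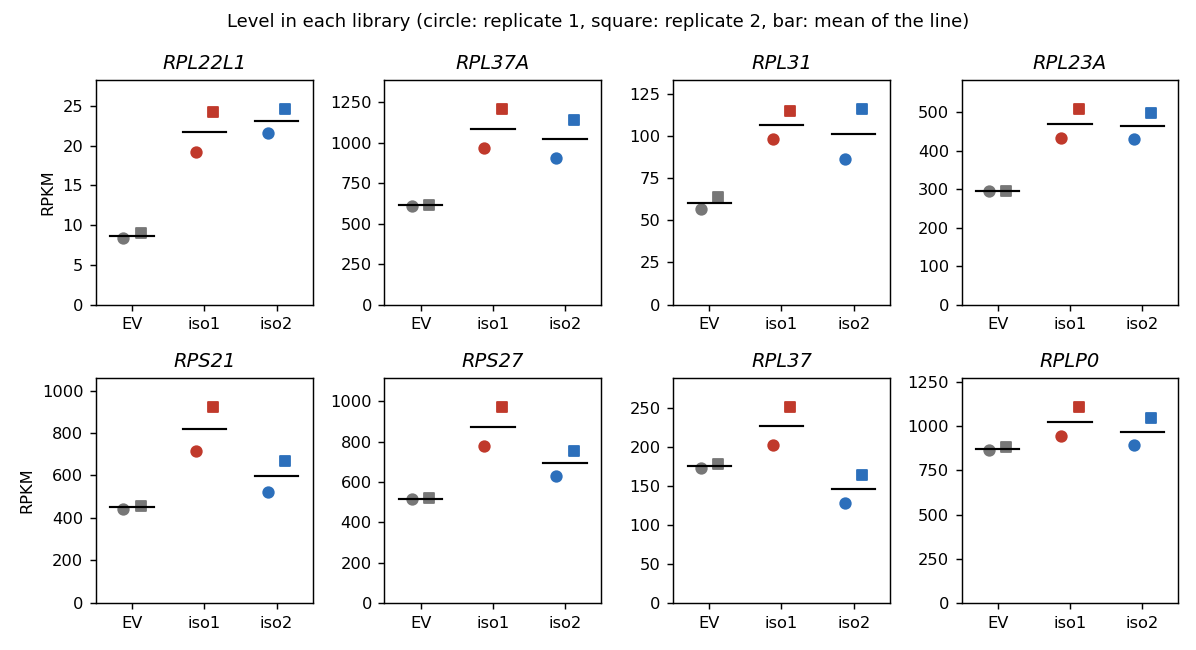
RPKM of 8 ribosomal protein genes in each library (circle replicate 1, square replicate 2, bar the mean of the line, vertical axes from 0). *RPL22L1*, *RPL37A*, *RPL31* and *RPL23A* are higher in both TBX3 lines, *RPS21* and *RPS27* are highest in TBX3iso1, *RPL37* is lowest in TBX3iso2, and *RPLP0* is shown as a stalk gene that was not called.

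The ribosomal stalk, which recruits translation factors, was not called in either line. *RPLP0*, a frequent normalizer, was 863 and 880 RPKM in EV, 942 and 1106 in TBX3iso1 and 892 and 1044 in TBX3iso2. Its log2 fold changes of 0.23 ± 0.15 and 0.15 ± 0.15 did not pass the test (adjusted p = 0.23 and 0.437), although all 4 TBX3 libraries were above both EV libraries. *RPLP1* (0.39 and 0.22) and *RPLP2* (0.37 and 0.13) did not pass either, but did in TBX3iso1 with the replicate block (adjusted p = 0.0356 and 0.0286).

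Between the isoforms the family differed little, and the sign depended on the library. The median log2 difference of TBX3iso2 against TBX3iso1 was -0.08 against 0.05 for all genes tested, and 15 of 81 members were above 0, against 60% of all genes. With replicate 1 of both lines the median member differed by -0.06, with replicate 2 of both by -0.09, with TBX3iso2 replicate 1 against TBX3iso1 replicate 2 by -0.35 and with TBX3iso2 replicate 2 against TBX3iso1 replicate 1 by 0.19. Leaving out TBX3iso1 replicate 2 or TBX3iso2 replicate 1 turned the median to 0.07 and 0.05. A single member was called, which is 1.23% against 2.82% of all genes lower, and 0 were called higher, against 3.47%. In 2 members both TBX3iso2 libraries were above both TBX3iso1 libraries (2.47%, against 33.4%) and in 8 below (9.88%, against 20.1%). With the adjusted p alone the counts were again 0 higher (against 8.79%) and 1 lower (against 5.97%), and either way 1 member was called, against 6.29%. With the replicate block 2, *RPL13* and *RPL39L*, were higher (against 15.5%) and 6 lower (against 9.5%), and the same member was called. This was *RPL37*, a zinc-binding 60S protein, at 173 and 179 RPKM in EV, 203 and 251 in TBX3iso1 and 128 and 164 in TBX3iso2. Both TBX3iso2 libraries were below all others and both TBX3iso1 libraries above, with a log2 difference between the isoforms of -0.64 ± 0.14 (adjusted p = 0.0252) and of -0.28 between TBX3iso2 and EV (adjusted p = 0.146, and 0.0265 with the replicate block). The call on the isoforms was lost without TBX3iso1 replicate 2 (-0.49, adjusted p = 0.0878), without TBX3iso2 replicate 1 (-0.46, adjusted p = 0.0625) and with only these 2 lines in the model (-0.64, adjusted p = 0.0756).

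The members were also read relative to the family, by centring every library on its median ribosomal protein gene. This scale was chosen after the replicate differences had been seen, and it moves the median of all genes tested to -0.45 in TBX3iso1 and -0.26 in TBX3iso2, so a value gives a position within the family and not a level in the cell. On it the median absolute difference between the replicates of a line over the members was 0.045 in EV, 0.039 in TBX3iso1 and 0.039 in TBX3iso2, a spread from which the centring removes by construction whatever the members of a library share. In TBX3iso1, 6 members were higher relative to the family at an adjusted p under 0.05, against 3.33% of all genes tested, and 24 were lower, against 44.7%. In TBX3iso2 there were 8 higher (against 5.12%) and 15 lower (against 23.3%). The centring itself shifts these shares of all genes, so they are no baseline for the members. It also does not set the median difference of the members to 0 exactly. That median was -0.076 in TBX3iso1, -0.045 in TBX3iso2 and 0.060 between the isoforms. The counts against EV therefore lean to the lower side, and those between the isoforms to the higher side. *RPL37A* was at 1.01 and 1.01 in EV, 1.42 and 1.45 in TBX3iso1 and 1.44 and 1.52 in TBX3iso2, with relative differences of 0.42 (adjusted p = 6.53e-05) and 0.47 (adjusted p = 3.81e-05). *RPS21* differed by 0.45 (adjusted p = 0.00013) in TBX3iso1 and by 0.13 in TBX3iso2 (adjusted p = 0.0772), and on this scale TBX3iso2 was 0.32 below TBX3iso1 (adjusted p = 0.00672). Between the isoforms, 5 members were higher in TBX3iso2 (against 3.99%) and 4 lower (against 1.17%). The 6 genes called in TBX3iso1 were the same 6 that were higher relative to the family there than in EV. Both lists come from the same values, so the overlap is no separate support.

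Some members were lower relative to the family in a TBX3 line than in EV. *RPL13*, a 60S protein, was 158 and 155 RPKM in EV, 120 and 145 in TBX3iso1 and 144 and 191 in TBX3iso2, and was the one member with both TBX3iso1 libraries below both EV libraries. Its log2 fold change of -0.24 did not pass the test (adjusted p = 0.205), whereas relative to the family it was at -0.94 and -0.98 in EV, -1.59 and -1.61 in TBX3iso1 and -1.21 and -1.06 in TBX3iso2 (-0.64 in TBX3iso1, adjusted p = 0.000203, and -0.17 in TBX3iso2, adjusted p = 0.127). *RPL37* was at -0.81 and -0.77, -0.83 and -0.82, and -1.39 and -1.28, which is -0.54 in TBX3iso2 (adjusted p = 0.000406) and -0.04 in TBX3iso1 (adjusted p = 0.674). *RPS12* was likewise lower in TBX3iso2 alone by this test (-0.41, adjusted p = 0.00137, against -0.02 in TBX3iso1, adjusted p = 0.794), and the difference between the isoforms passed for both (*RPL37* -0.50, adjusted p = 0.00304, and *RPS12* -0.39, adjusted p = 0.00898). *RPL39L* was lower in TBX3iso1 (-0.51, adjusted p = 0.00488) with 0.01 in TBX3iso2 (adjusted p = 0.961), and *RPS27L* was lower in both (-0.60 and -0.53, adjusted p = 0.0028 and 0.00805). *RPL13* and *RPS12* were chosen after their values had been seen.

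Ribosomal proteins named outside the symbol rule had the same sign as most members. All 5 of these in the table, among them *RPSA*, *FAU*, *RPL36AL* and *GNB2L1*, whose product RACK1 sits on the 40S subunit, were above 0 in both lines, with medians of 0.29 and 0.28. Of these, *GNB2L1* passed in TBX3iso2 (560 and 561 RPKM in EV, 708 and 814 in TBX3iso2; 0.44, adjusted p = 0.0255). With the replicate block 2 were higher in each line at an adjusted p under 0.05, against 24.1% and 27.9% of all genes tested. The replicate medians of the 5 were 0.30 in TBX3iso1 and 0.28 in TBX3iso2.

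Genes for ribosome assembly factors were higher in both lines. Of 40 biogenesis genes, 31 were higher in TBX3iso1 and 36 in TBX3iso2 at an adjusted p under 0.05 and 0 were lower, with medians of 0.43 and 0.50. Of all genes tested, 19% and 22.9% were higher and 25.7% and 22.7% lower. With the replicate block 34 and 38 biogenesis genes were higher, against 24.1% and 27.9%, and 0 were lower, against 31.8% and 28.1%. Their replicate medians were 0.09 and 0.08 in the TBX3 lines, against 0.29 and 0.25 for the members. *NCL*, the nucleolar protein nucleolin, was 275 and 274 RPKM in EV, 532 and 550 in TBX3iso1 and 570 and 579 in TBX3iso2 (0.98, adjusted p = 0.000222, and 1.06, adjusted p = 0.000153). *NOP58*, a core protein of the C/D box ribonucleoprotein, was 52.9 and 55.9, 92.3 and 100.1, and 101 and 105, and *WDR12*, a 60S assembly factor, was 15.5 and 15.2, 23.8 and 24.9, and 30.8 and 32.6. The mitochondrial ribosomal proteins, encoded in the nucleus and also short, had replicate medians of 0.23 and 0.22. Of 77, 27 were higher in TBX3iso1 (42 with the replicate block) and 45 in TBX3iso2 (56 with the block). In each line 0 were lower, or 1 with the block. The nuclear-encoded respiratory chain genes were 16 higher and 6 lower of 92 in TBX3iso1 and 18 and 4 in TBX3iso2. On the higher side these are no larger shares than among all genes tested (19% and 22.9%). With the block 31 and 34 were higher (33.7% and 37%, against 24.1% and 27.9%) and 7 and 6 lower. The replicate medians of these genes were 0.24 and 0.23. Proteasome genes were 16 higher (25 with the block) and 1 lower of 37 in TBX3iso1, and 22 (28 with the block) and 0 in TBX3iso2.

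Translation factors and other proteins with TOP messages had medians of 0.03 in TBX3iso1 and 0.07 in TBX3iso2. Of 17, 3 were higher and 1 was lower in each line at an adjusted p under 0.05, where 19% and 22.9% of all genes tested were higher and 25.7% and 22.7% lower. With the block 5 were higher in TBX3iso1 and 4 in TBX3iso2. *EEF1B2*, a subunit of the elongation factor 1 exchange complex, was 112 and 118 RPKM in EV, 178 and 217 in TBX3iso1 and 175 and 206 in TBX3iso2 (0.78, adjusted p = 0.00192, and 0.73, adjusted p = 0.00246). *EEF1A1* rose in TBX3iso1 (0.60, adjusted p = 0.022) and was 0.28 in TBX3iso2 (adjusted p = 0.212). *EIF4B* fell in both lines (-0.24 and -0.29, adjusted p = 0.0254 and 0.0125), and *EEF2* was 446 and 414 in EV and between 416 and 434 in the TBX3 lines. Of 16 hosts of small nucleolar RNAs, 7 were higher in TBX3iso1 and 6 in TBX3iso2 (10 in each with the block) and 0 were lower, beside the same shares of all genes, among them *SNHG15* (0.89, adjusted p = 0.00106, and 1.02, adjusted p = 0.000534).

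Of 19 tested regulators of ribosomal protein synthesis, 1 was higher and 9 were lower in each TBX3 line at an adjusted p under 0.05, beside 19% and 22.9% of all genes tested higher and 25.7% and 22.7% lower. With the block 3 were higher and 10 lower in TBX3iso1. *MYC*, which drives ribosome genes in many cells, was 78.0 and 74.3 RPKM in EV, 74.3 and 71.7 in TBX3iso1 and 80.1 and 74.2 in TBX3iso2, and did not pass the test. The translation inhibitor *PDCD4* was 5.77 and 5.69, 2.63 and 2.58, and 2.32 and 2.17 RPKM, a log2 fold change of -1.11 (adjusted p = 0.000138) and -1.32 (adjusted p = 6.43e-05). *TSC1*, a brake on mTOR signalling, fell by 0.75 and 0.65 (adjusted p = 0.00385 and 0.00678). *MTOR* itself, the kinase that promotes translation of TOP messages, also fell in both lines (-0.46 and -0.52, adjusted p = 0.0381 and 0.0238), and *RPS6KB1*, the S6 kinase below it, fell in TBX3iso1 (-0.39, adjusted p = 0.00402) and was -0.17 in TBX3iso2 (adjusted p = 0.0904). The inhibitor of translation initiation *EIF4EBP1* was the gene that rose (0.51 and 0.45, adjusted p = 0.00929 and 0.0152).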

How the data were processed

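The authors made TruSeq stranded mRNA libraries, aligned paired reads to hg19 with TopHat at default settings with a cap on the alignments of a read, and computed RPKM per gene in Partek. The deposited values are these RPKM and a line of alignments per library. The versions, the annotation, the strand setting and how Partek counted reads with several alignments are not given in the sources used here. Log2(RPKM + 0.1) values of 12805 genes, those averaging 0.5 RPKM or more, were fitted in limma 3.58.1 (R 4.3.3) with 1 mean per line, a trend and Benjamini-Hochberg adjustment over all genes tested. Fold changes on this scale understate those of low genes. A call needed an adjusted p under 0.05 together with more than a 1.5-fold change. The model was also run on simulated data with independent noise for each gene. Those data hold no shift shared by the members of a library, so the run does not bear on that shift. Gene spans and lengths came from GENCODE on GRCh37 and start windows from RefSeq on GRCh38.p14. The members, gene lists and tests were chosen with earlier results of these data known. Named were members called, highest, lowest, stalk genes, paralogues with parents, extremes of replicate difference and the largest members past the adjusted p where few were called. A few genes named by it are left out of the text. *RPL13*, *RPS12*, *RPS25*, *RPS3*, *MTOR* and *RPS6KB1* were added where a result turned on them. Alternatives were other scalings, filters, pseudocounts, corrections for length and GC, a replicate block and leaving out each library. The deviations of same-numbered replicates correlated over all genes tested at 0.22 between EV and TBX3iso1, 0.11 between EV and TBX3iso2 and 0.50 between the TBX3 lines (0.19, -0.09 and 0.02 over the members). The replicate number was therefore fitted as a block in an alternative, although the labels name no shared culture or batch. The reported fit leaves it out, and block counts stand beside the counts at an adjusted p against EV that it moved. The block gives all 3 lines 1 shift, while the members shifted by 0.04 in EV and by 0.29 and 0.25 in the TBX3 lines.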

Additional observations from a re-analysis of the deposited data

How the results depend on the processing

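The table holds no counts, so what depth limits was not computed, and 2 libraries per line leave the spread to moderation across genes. Of the alternatives for single members named by the rule given above, 51 ended a call and 9 added one. Members outside that rule gained calls too, which these numbers leave out. The median of the members stayed above 0 against EV under every alternative but centring on the median member, which sets it near 0 by construction (-0.076 for TBX3iso1, -0.045 for TBX3iso2 and 0.060 between the isoforms). That centring and the coding length correction were chosen after seeing the data. Scaling to total RPKM moved the median of all genes in TBX3iso1 to -0.14. The cause of the differences was not tested. The counts of members that follow are given without the share of all genes under the same setting. Such shares are given above only for the reported fit, the replicate block and the centring. The counts show how far the result for the members moved, and not a difference between the members and other genes.

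For TBX3iso1 against EV, with 19 members higher and 0 lower at an adjusted p under 0.05, the counts higher were 6 with no filter on low values, 34 with median-ratio scaling, 31 scaled to total RPKM, 56 corrected for transcript length, 44 corrected for coding length, 6 centred on the members, 37 with only these lines and 1 without moderation. Counts lower were 1 with quantile normalization, total RPKM and transcript length, 3 with coding length and 24 centred on the members. When centred, 1 of the 6 calls was left and 2 other members, *RPL13* and *RPS27L*, were called lower (3 calls in all), and without moderation 1 was left. The median became 0.13 with quantile normalization.

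For TBX3iso2 against EV, with 8 higher and 0 lower, the counts higher were 4 with no filter, 18 with quantile normalization, 15 with total RPKM, 28 with transcript length, 18 with coding length, 17 with only these lines and 1 without moderation. Counts lower were 4, 2, 2 and 3 for quantile, total RPKM, transcript length and coding length, and 15 when centred. The 4 calls became 2 with coding length, 1 when centred and 1 without moderation.

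Between the isoforms, with 0 higher, 1 lower and 1 call, the counts higher and lower were 3 and 9 with quantile normalization, 1 and 7 with total RPKM, 2 and 16 with transcript length, 2 and 12 with coding length and 5 and 4 when centred, and 2 were lower when corrected for GC content. The call was lost (0 called) with no filter, centred, with only these lines and without moderation, and 0 were then lower except when centred.

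With a replicate block no call of a member changed, and the counts higher and lower were 54 and 1 for TBX3iso1, 34 and 2 for TBX3iso2 and 2 and 6 between the isoforms. With the replicate block and the transcript length correction they were 63 and 2, 45 and 2, and 3 and 27.

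Without one library at a time, the counts called ranged from 2 to 16 in TBX3iso1, 1 to 6 in TBX3iso2 and 0 to 3 between the isoforms. Those higher ranged from 2 to 46, 1 to 24 and 0 to 2, and those lower from 0 to 0, 0 to 3 and 0 to 5. The medians ranged from 0.17 to 0.46, 0.09 to 0.34 and -0.22 to 0.069, and the last was reversed without TBX3iso1 replicate 2 (0.069) and without TBX3iso2 replicate 1 (0.050).

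Leaving the 10 most abundant genes out of the total moved the share of the family to 9.63% and 9.93% in EV, 12.2% in TBX3iso1 replicate 2 and 11.2% in TBX3iso2 replicate 2. The median of replicate 1 minus replicate 2 became -0.10 with quantile normalization and -0.13 with the transcript length correction in TBX3iso1, and -0.074 and -0.067 in TBX3iso2.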
